A study of Mus musculus with 137 samples.

Results

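The proteasome genes of mouse were followed in single 2-cell embryos that had been cultured with an inhibitor of the nuclear receptor NR5A2. Members were all genes whose symbol begins with Psma, Psmb, Psmc, Psmd, Psme, Psmf or Psmg and that are not marked as pseudogenes. There were 50 of them among 36161 genes, covered by 278 annotated transcripts. They were sorted by textbook role into the rings of the 20S core, the 19S regulatory particle, assembly chaperones, activators and an inhibitor. Psmc3ip carries the prefix but encodes a recombination factor and not a proteasome subunit. It is kept out of these classes but is counted among the members.

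The embryos were B6129F1 zygotes, collected 5 h after fertilization and grown in KSOM medium in oil-free wet chambers, since the inhibitor is hydrophobic. From 6 h after fertilization, 1 group received 10 µM SR1848 after microinjection with 500 ng/µl of NR5A2 mRNA. A second group received 10 µM SR1848 without injection, and the control group received the solvent, DMSO, at 0.1%. As labelled, these groups held 67, 41 and 29 libraries of 1 embryo each, spread over 2 experiments. No group injected with another mRNA or with buffer was analysed here, so NR5A2 mRNA and the injection itself cannot be told apart. The libraries were SmartSeq2 libraries primed on poly(A) tails. A lower level can thus stand for fewer transcripts or for shorter tails, and fewer or smaller cells cannot be told apart from less RNA per cell. Parents and litters were not recorded in the labels, so p-values measure the spread between embryos, which may share parents.

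The proteasome degrades proteins tagged with ubiquitin. Its 20S core is a barrel of outer alpha rings, which gate the entrance, and inner beta rings, whose Psmb5, Psmb6 and Psmb7 subunits cut proteins with chymotrypsin-like, caspase-like and trypsin-like specificity. The 19S particle caps the barrel. Its base unfolds substrates with the ATPases Psmc1 to Psmc6, and its lid removes ubiquitin through Psmd14. Interferon-induced cells replace the catalytic subunits with Psmb8, Psmb9 and Psmb10, and the Psme1 and Psme2 proteins form the PA28 activator that often caps such cores. In early embryos the proteasome takes part in clearing maternal proteins while the embryo's own genome is switched on.

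In experiment 2, 16 libraries went against their labels and were set aside. DMSO libraries 1 to 8 held 47.4 to 7075 CPM (counts scaled to the size of the library) of GFP, a sequence that the labels do not mention, and a median of 2260 CPM of Nr5a2. Library 4 was the lowest on both, and its 88.3 CPM of Nr5a2 lay within the 83.7 to 189 CPM of the DMSO libraries kept, so it stood apart by GFP alone. SR1848 with NR5A2 mRNA libraries 1 to 8 held at most 0.452 CPM of GFP and a median of 108 CPM of Nr5a2. A further 7 libraries were set aside for a low total or few detected genes. This left 114 libraries, 56 of SR1848 with NR5A2 mRNA, 40 of SR1848 and 18 of DMSO, of which only 2 DMSO libraries came from experiment 2. Median Nr5a2 was 3093 CPM in injected embryos, 13.2 CPM in SR1848 embryos and 111 CPM in DMSO embryos. Of the 56 injected embryos, 14 had under 100 CPM of GFP, and their Nr5a2 lay between 5.37 and 97.0 CPM. The 9 oocyte and 2-cell markers had a median above 0 in each group, but their summed level moved with the groups, with medians of 2849 CPM in injected, 3049 CPM in SR1848 and 651 CPM in DMSO embryos. Bmp15 made up most of it, at 1599, 2228 and 321 CPM in the same groups. Zp3 was highest in DMSO embryos, at 26.4, 37.5 and 77.9 CPM in the same order. The medians of Zfp352 and Zscan4d were also lower in SR1848 than in DMSO embryos, and those of the other markers were higher. The libraries as labelled held 100883 to 9317721 counts each. Counts over all members, the constitutive core and the 19S particle are given with and without the libraries set aside.

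Calls were made with edgeR's quasi-likelihood test at a Benjamini-Hochberg adjusted p under 0.05 over all 15135 genes tested. Libraries were scaled by the trimmed mean of M values (TMM). Another scaling, to 43 genes known as oocyte transcripts, moved the median log2 fold change of all genes to −1.92 in SR1848 against DMSO, 0.78 in injected against SR1848 and −0.93 in injected against DMSO embryos. Small rises against DMSO are therefore given on both scales. Rises in injected against SR1848 embryos are mostly given with TMM alone. Of the 50 members, 48 passed the filter on low counts. Psma8, a testis alpha subunit, and Psme2b, a copy of Psme2, did not pass. Psma8 was counted in 18 of 56 injected, 5 of 40 SR1848 and 7 of 18 DMSO embryos.

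Under SR1848 the proteasome messages were lower in most classes, and the inhibitor Psmf1 was the clearest exception. Of the 48 members tested, 34 fell and 7 rose against DMSO, with a median log2 fold change of −2.18. The 34 include the non-subunit Psmc3ip, at −4.41 ± 0.47. Among all genes tested in that comparison, 38.5% fell and 38.3% rose, with a median of 0.01. With all libraries as labelled, 31 of 47 members fell and 8 rose (median −1.73), against 35.5% and 33.5% of 14534 genes. Experiment 1 alone gave 33 lower and 7 higher members (median −2.25), and experiment 2 alone, with 2 DMSO embryos, 32 and 4 (median −1.99). The median of all genes was −0.04 in experiment 1 alone and 0.30 in experiment 2 alone. Shares of all genes called are not given for single experiments, so these counts are not set against the shares above. The ranges of the 40 SR1848 and the 18 DMSO embryos did not overlap for 23 members, 21 of them lower and 2 higher under SR1848. The share of all genes without overlap was not computed, so this count is not read as particular to the members. Markers of other cells moved with these groups. The summed level of 9 cumulus and granulosa markers was 0.295 to 191 CPM in SR1848 embryos (median 5.81), against 32.7 to 126 CPM in DMSO embryos (median 80.1). In DMSO embryos it lay almost wholly in Amhr2 (median 78.7 CPM), and Amh, Fshr, Ptx3, Inha and Foxl2 had a median of 0 in each group. The part of these markers, and of the oocyte markers, in the result was not tested.

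In the constitutive 20S core, 13 of 14 members fell under SR1848 and 0 rose, against 38.5% and 38.3% of all genes. At an unadjusted p under 0.05 edgeR had 1 higher, Psma7, and DESeq2 0. The counts were 11 and 0 of 14 with all libraries as labelled, against 35.5% and 33.5% of all genes. Psmb5, the chymotrypsin-like subunit, had the lowest fold change of the members. Its level was 0, 0.073 and 9.42 CPM (lowest, median, highest) in SR1848 embryos, against 57.9, 105 and 178 CPM in DMSO embryos. Every SR1848 embryo lay below every DMSO embryo, and the log2 fold change was −6.07 ± 0.66 (SE, n = 40 and 18, edgeR adjusted p = 9.97e-15). Psma3, an alpha ring subunit, had the smallest p among the members. It measured 16.0, 33.5 and 68.7 CPM in SR1848 embryos, against 160, 266 and 336 CPM in DMSO embryos, again with no overlap. Its log2 fold change was −2.92 ± 0.15 (edgeR adjusted p = 1.71e-36).

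The other core members fell by unequal amounts. Psmb7, the trypsin-like subunit, changed by −4.44 and the structural beta subunits Psmb4 and Psmb1 by −4.34 and −4.18 on the log2 scale. The alpha subunit Psma6 changed by −4.32. Psmb6, the caspase-like subunit, changed by only −0.82 ± 0.19, and its ranges overlapped at 8.79 to 73.0 CPM in SR1848 embryos and 28.8 to 128 CPM in DMSO embryos. The catalytic subunits of 1 barrel thus differed widely in how far their messages fell. Psma7, an alpha subunit, was not called at 0.44 ± 0.21 (edgeR adjusted p = 0.0531). It had 82.9 CPM at the median in SR1848 embryos and 64.8 CPM in DMSO embryos.

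**Figure D1:**
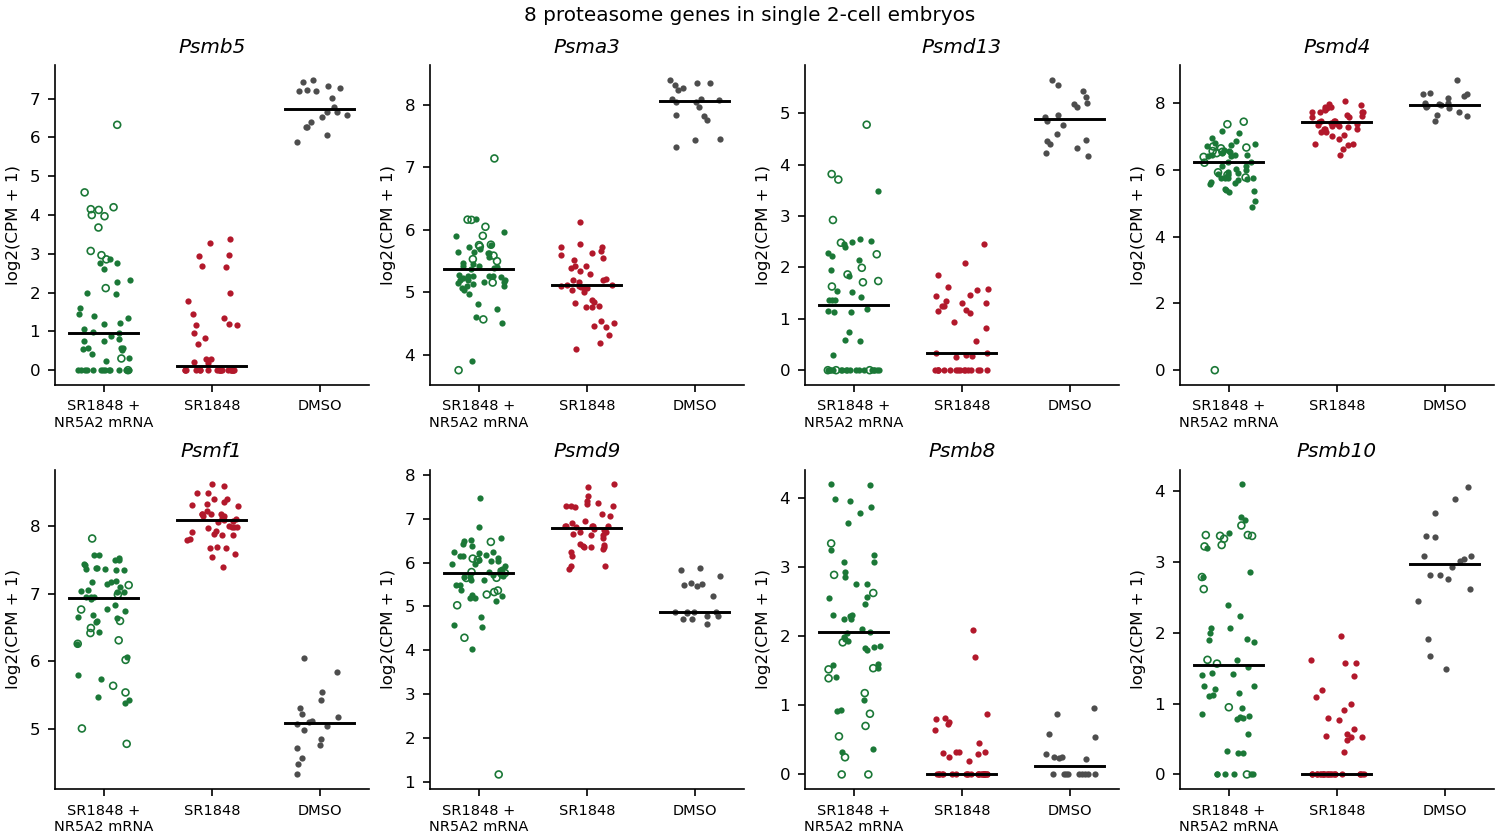
Level of 8 proteasome genes in each of the 114 embryos, as log2(CPM + 1) on the y axis, with SR1848 plus NR5A2 mRNA, SR1848 and DMSO from left to right; each point is an embryo, hollow points are injected embryos under 100 CPM of GFP, and the line is the group median. For Psmb5 every SR1848 embryo (at most 9.42 CPM) lies below every DMSO embryo (at least 57.9 CPM), and for Psmf1 every SR1848 embryo (at least 168 CPM) lies above every DMSO embryo (at most 65.3 CPM).

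In the 19S particle, 13 of 17 members fell and 1 rose under SR1848, and 11 fell and 3 rose with all libraries as labelled. Of all genes, 38.5% fell and 38.3% rose, or 35.5% and 33.5% as labelled. All 6 ATPases of the base fell, between −3.75 for Psmc4 and −1.79 for Psmc2 on the log2 scale. Psmc5 had the smallest p of them, at 2.36, 15.4 and 53.3 CPM in SR1848 embryos against 60.6, 98.1 and 185 CPM in DMSO embryos. Its log2 fold change was −2.46 ± 0.19 (edgeR adjusted p = 2.23e-23), and the groups did not overlap.

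The lid was split. Psmd13, a structural lid subunit, had 0, 0.255 and 4.50 CPM in SR1848 embryos, against 17.0, 28.6 and 49.2 CPM in DMSO embryos, a log2 fold change of −5.09 ± 0.58 (edgeR adjusted p = 1.18e-13). Psmd14, the deubiquitinating subunit, changed by −4.10, Psmd6 by −4.01 and Psmd12 by −3.97. Psmd11, the most abundant 19S member per length in every group, changed by −0.97 ± 0.14. Psmd3 at 0.30 and Psmd8 at −0.13 were not called.

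The large scaffolds and the ubiquitin receptor of the base moved little. Psmd1 was not called at 0.21 ± 0.14. Psmd2 rose by 0.57 ± 0.21 with TMM, and was at −1.51 with oocyte scaling, with 34 of 40 SR1848 embryos above the DMSO median. Psmd4, the ubiquitin receptor, fell by 0.58 on the log2 scale, and it was not called with all libraries as labelled (−0.07, edgeR adjusted p = 0.834).

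Assembly factors and regulators moved in both directions under SR1848. The base chaperones Psmd9 and Psmd10 rose by 1.68 ± 0.21 and 2.12 ± 0.32 with TMM, and were at −0.33 and 0.11 with oocyte scaling. Psmd5, another base chaperone, changed by −1.53 ± 0.15. Psmd10 measured 5.69, 18.8 and 46.4 CPM in SR1848 embryos and 1.56, 3.66 and 5.56 CPM in DMSO embryos, with no overlap. Of the chaperones that build the core, Psmg1 rose by 1.34 ± 0.19 (−0.67 with oocyte scaling) while Psmg3 changed by −4.72 ± 0.67 and Psmg2 by −2.61 ± 0.55. Psmg1 and Psmg2 work as a heterodimer, and their messages moved apart. Psmg4 was not called at 0.42 ± 0.50.

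Among the activators, Psme3, the nuclear PA28 gamma, rose by 1.03 ± 0.23 and Psme4, known as PA200, by 0.82 ± 0.14 with TMM, against −0.97 and −1.12 with oocyte scaling. Psme4 measured 252, 447 and 844 CPM in SR1848 embryos, against 124, 263 and 378 CPM in DMSO embryos, and the ranges overlapped. The PA28 partners Psme1 and Psme2 changed by −3.21 ± 0.68 and −2.58 ± 0.48 from low levels, with DMSO medians of 5.50 and 9.27 CPM. Psmf1, which encodes the proteasome inhibitor PI31, rose most. It measured 168, 271 and 394 CPM in SR1848 embryos, against 19.0, 33.0 and 65.3 CPM in DMSO embryos, with no overlap. Its log2 fold change was 2.86 ± 0.18 (edgeR adjusted p = 2.34e-28). It was 2.18 with all libraries as labelled and 0.82 with oocyte scaling.

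With oocyte scaling the median of the members was −4.13 and that of all genes −1.92. A change of scaling moves all genes of a comparison nearly alike, so the gap between these medians is set by construction and says nothing on how firm the result is. Of the 7 risen members, Psmf1 and Psmd10 stayed above 0 with oocyte scaling, and only Psmf1 was still called. Under relative log expression scaling the median of all genes moved to −0.55 and that of the members to −2.75.

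**Figure D2:**
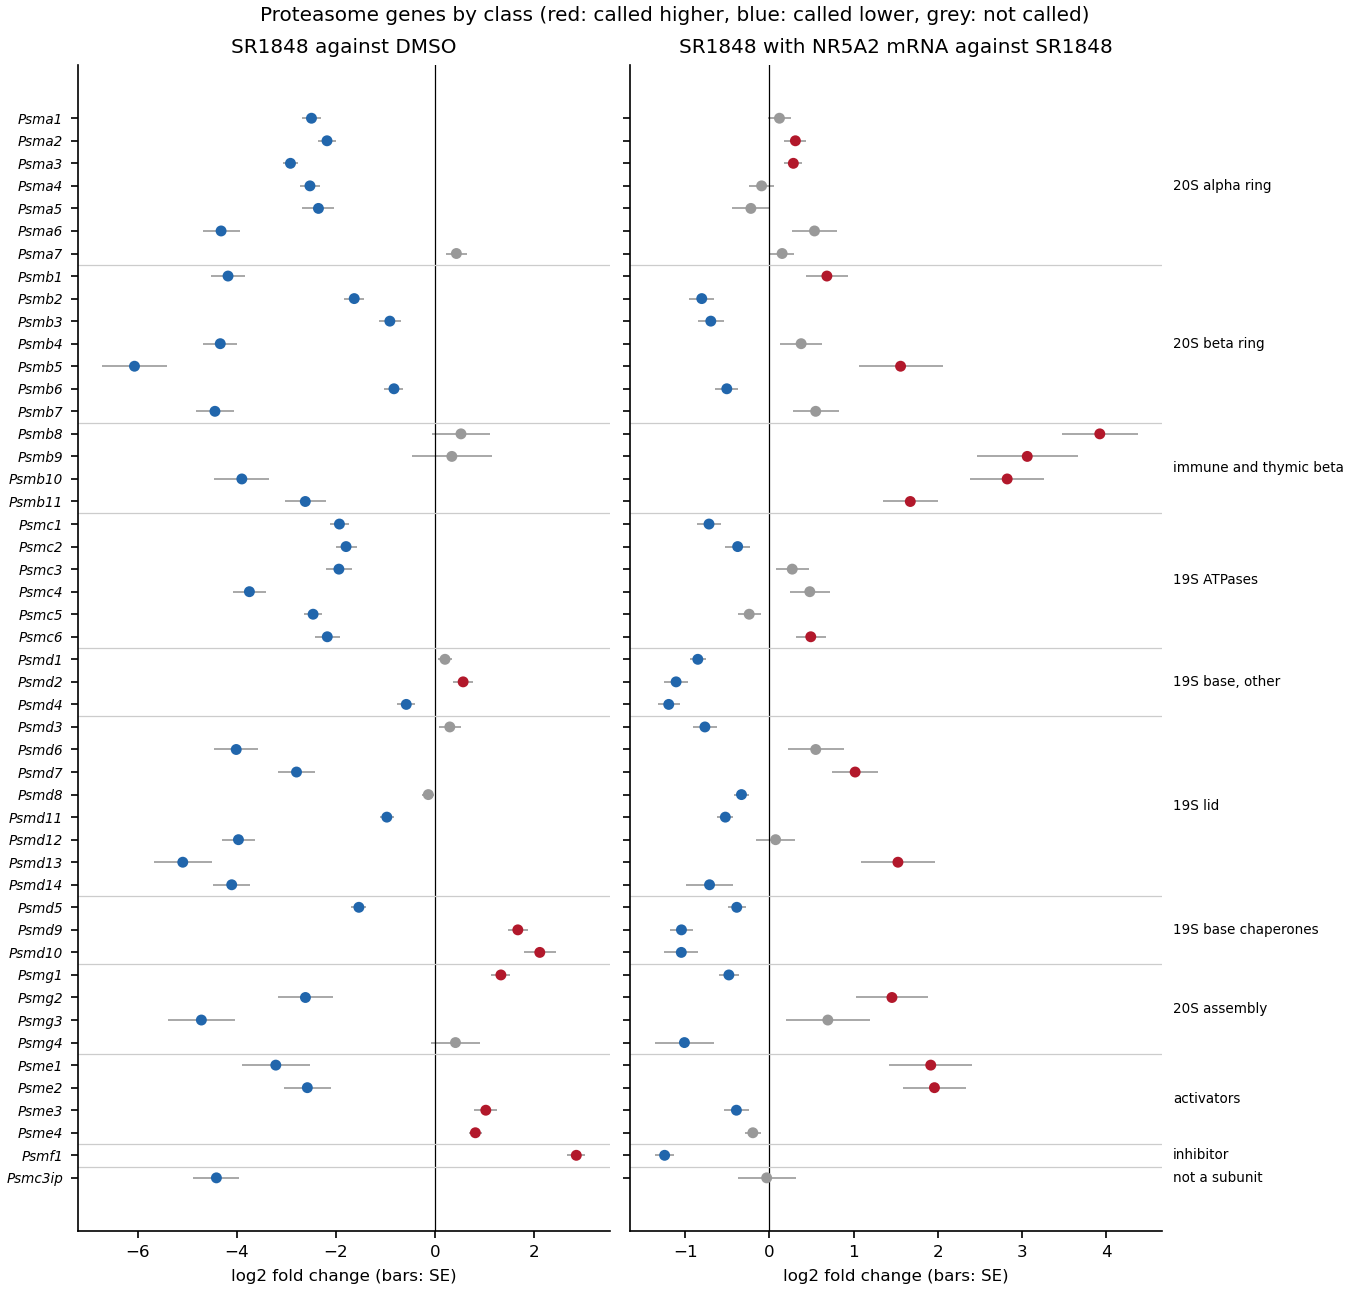
Log2 fold change (x axis) of the 48 tested members, the non-subunit Psmc3ip included, listed by class on the y axis. The comparisons are SR1848 against DMSO and SR1848 with NR5A2 mRNA against SR1848. Points are edgeR estimates and bars are SE. Colours mark higher, lower and not called at an adjusted p under 0.05. With TMM scaling, 34 members lie lower and 7 higher in the SR1848 column (1 higher with scaling to oocyte transcripts); in the NR5A2 mRNA column 19 lie lower and 14 higher, with the immune subunits at the right.

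Because the injected mRNA encodes a factor that binds DNA, promoter windows of the members were searched for short motifs on both strands. RefSeq (GRCm38.p6) windows of 250 bases before to 50 after the gene start were matched for 42 of the 50 members. The NR5 element, NCAAGGNCA, was present in the windows of 4 of these 42 members (9.52%) and in 7.61% of all 27025 genes. The 4 are Psmb5 and Psmd13, the core and lid genes with the lowest fold changes under SR1848, Psmb10, and the non-subunit Psmc3ip. Each is shown in the direction of its gene with 10 flanking bases, the match in capitals. A match describes letters and not binding, and no binding data were used.

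Psmb5: cagttcctgtTGCCCTTGCtaaacatggc
Psmd13: ctttaatgccTCAAGGGCAgggccagaaa
Psmb10: tgccctcttcTGACCTTGGtgggcatgtg
Psmc3ip: cgggtttagcTCAAGGTCAcgagtgctca

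The Psmb5 stretch lies at chr14:54617987-54618015 on the minus strand, and its match starts 10 bases before the RefSeq gene start, within the longer span that GENCODE M21 gives the gene. That of Psmd13 lies at chr7:140882258-140882286 on the plus strand, that of Psmb10 at chr8:105938416-105938444 and that of Psmc3ip at chr11:101095655-101095683, both on the minus strand. Psmb5 and Psmb10 hold the element in the reverse orientation. Psmb4, Psma6, Psmd14, Psmd6 and Psmg3, which also fell by more than 4 on the log2 scale, had no match in their windows. Psmb7 and Psmb1 also fell by more than 4 and are not among the members with a match. Whether these 2 had a window is not given.

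The upstream stretches of Psmb5 (chr14:54618023-54618245, minus strand) and Psmf1 (chr2:151741311-151741560, minus strand) are printed because these were the members with the lowest and highest fold changes under SR1848. Psmb5 spans chr14:54614119-54618022 and Psmf1 chr2:151715812-151744186 in GENCODE M21, so the Psmf1 stretch, which precedes the RefSeq start, lies within the longer GENCODE span. Capitals mark any of the motifs searched, which were the NR5 element, TGACNNNGC, TTCNNNGAA, GAAANNGAA, CCAAT and GGGCGG. The Psmb5 stretch runs from −250 to −28 relative to the RefSeq start, so its NR5 element at −10 lies outside it. The Psmf1 stretch runs from −250 to −1, so the spans are unlike.

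Psmb5 upstream: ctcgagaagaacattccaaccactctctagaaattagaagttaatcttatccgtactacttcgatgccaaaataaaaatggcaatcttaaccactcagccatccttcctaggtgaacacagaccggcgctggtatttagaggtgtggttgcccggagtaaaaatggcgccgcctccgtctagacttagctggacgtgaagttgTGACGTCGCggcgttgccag
Psmf1 upstream: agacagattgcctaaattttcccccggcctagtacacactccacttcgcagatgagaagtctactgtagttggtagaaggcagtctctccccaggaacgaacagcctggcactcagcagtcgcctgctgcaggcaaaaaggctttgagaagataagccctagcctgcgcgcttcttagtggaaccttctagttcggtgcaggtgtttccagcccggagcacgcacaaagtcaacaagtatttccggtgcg

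Psmb5 holds TGACNNNGC, the core of the antioxidant response element that the proteasome gene activators Nfe2l1 and Nfe2l2 bind. It was present for 6 of 42 members (14.3%) and for 14.0% of all genes. The Psmf1 stretch holds none of the 6 motifs. GGGCGG, the GC box, was present for 23 of 42 members (54.8%) and for 38.2% of all genes, and CCAAT for 35.7% of the members and 41.1% of all genes.

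NR5A2 mRNA on top of SR1848 was followed by higher messages of the immune subunits and of PA28, and by lower Psmf1, base scaffolds and base chaperones. Against SR1848 alone, 14 of 48 members rose and 19 fell, with a median log2 fold change of 0.02. Of all genes tested, 28.9% rose and 16.0% fell, with a median of 0.10. With all libraries as labelled, 23 of 47 members rose and 9 fell (median 0.61), against 29.6% and 12.4% of all genes. Experiment 1 alone gave 8 higher and 10 lower members (median 0.17), and experiment 2 alone 8 and 15 (median −0.09). The median of all genes was 0.13 in experiment 1 alone and 0.24 in experiment 2 alone. Without the 14 injected embryos under 100 CPM of GFP, a choice made after seeing the data, 8 of 48 rose and 24 fell (median −0.32). The median of all genes was then 0.06. Shares of all genes called are not given for single experiments or without these embryos, so those counts are not set against the shares above. This comparison and the one above share the SR1848 embryos, and no member had ranges that did not overlap.

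The interferon-inducible subunits rose together. All 5 of Psmb8, Psmb9, Psmb10, Psme1 and Psme2 rose, also without the 14 embryos, and all 4 that were tested rose with every library as labelled. Psmb8 had 0, 3.15 and 17.4 CPM in injected embryos, against 0, 0 and 3.25 CPM in SR1848 embryos and 0, 0.084 and 0.952 CPM in DMSO embryos. It was counted in 54 of 56 injected, 16 of 40 SR1848 and 9 of 18 DMSO embryos. Its log2 fold change against SR1848 was 3.93 ± 0.45 (edgeR adjusted p = 1.86e-12), with 3.17 in experiment 1 alone and 4.63 in experiment 2 alone. These are low levels, so the folds rest on small counts.

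Psmb10 had 0, 1.92 and 16.2 CPM in injected embryos and 0, 0 and 2.88 CPM in SR1848 embryos, a change of 2.83 ± 0.44 (edgeR adjusted p = 4.03e-08). In TPM, a scale per transcript length, its median was 12.0 in the 14 injected embryos under 100 CPM of GFP. It was 3.98 TPM in the 42 with more GFP and 0 TPM in SR1848 embryos. Psmb10 was thus higher in the injected embryos with little GFP, and this difference was not tested. Psmb9 rose by 3.06 ± 0.60, and was counted in 31 of 56 injected embryos and 7 of 40 SR1848 embryos. Psme1 and Psme2 rose by 1.92 ± 0.50 and 1.96 ± 0.37. Psmb11, the catalytic subunit known from thymic epithelium, rose by 1.67 ± 0.32. The group did not behave as a unit under SR1848 alone: Psmb10, Psmb11, Psme1 and Psme2 were lower there than in DMSO embryos, and Psmb8 at 0.53 ± 0.58 and Psmb9 at 0.35 ± 0.81 were not called. When every library was used as labelled, Psmb8 was called lower in SR1848 against DMSO, at −1.81. The 8 DMSO libraries that carried GFP had a median of 1.14 CPM of Psmb8.

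The windows of these genes were searched for TTCNNNGAA, known as the GAS element, and for GAAANNGAA, the core of the interferon-stimulated response element. Psmb8 holds the GAS element at chr17:34198088-34198116 on the plus strand, 97 bases before its RefSeq start and within its GENCODE span, and Psme1 holds the other. Psmb9, Psmb10 and Psme2 hold neither. The windows of Psmd2 and Psmg1 also hold the GAS element, and those of Psmb3, Psmb4, Psmc2, Psmd4, Psmd9 and Psmg4 the other. The elements were present for 3 and 7 of the 42 members and for 9.55% and 9.76% of all genes.

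Psmb8: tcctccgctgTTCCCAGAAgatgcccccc

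Other genes of the interferon response were then examined, chosen after values were seen. In injected against SR1848 embryos, Usp18 rose by 4.03 ± 0.60, Tap1 by 3.55 ± 0.62, Irf9 by 2.79 ± 0.35, H2-D1 by 2.26 ± 0.31, Irf1 by 1.12 ± 0.25 and B2m by 0.79 ± 0.20. Tap1 loads peptides for H2-D1 and B2m, and the other 3 act in interferon signalling. H2-K1 at −0.06 ± 0.40 was not called. Blood markers moved with this result. The summed level of the 6 blood markers was 0 to 461 CPM in injected embryos (median 200), 6.09 to 154 CPM in SR1848 embryos (median 29.2) and 2.71 to 38.3 CPM in DMSO embryos (median 14.3). Only Hba-a1 and Hba-a2 had a median above 0. Hbb-bs and Hbb-bt were at 0 in all injected and all SR1848 embryos, and Ptprc, the defining leukocyte marker, had a median of 0 and was counted in 22 of 56 injected, 13 of 40 SR1848 and 7 of 18 DMSO embryos. The part of these markers in the result was not tested.

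Immune catalytic subunits were set against the constitutive partners they replace, in TPM, a scale per transcript length. Psmb8 exceeded Psmb5 in 37 of 56 injected embryos, 7 of 40 SR1848 embryos and 0 of 18 DMSO embryos. The median TPM of Psmb8 was 3.46 in injected embryos, 0 in SR1848 embryos and 0.105 in DMSO embryos, and that of Psmb5 was 2.10, 0.149 and 226 TPM in the same groups. Psmb10 exceeded Psmb7 in 34, 5 and 0 embryos of these groups. Psmb9 exceeded Psmb6 in no embryo of any group. The order thus turned for the pairs whose constitutive partner was lowest under SR1848.

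In the constitutive core 4 of 14 members rose with NR5A2 mRNA and 3 fell, a share of rises close to the 28.9% of all genes. DESeq2 called 6 of 14 higher. Without the 14 embryos under 100 CPM of GFP 0 rose and 6 fell by edgeR, with 0 higher also at an unadjusted p under 0.05. Shares of all genes are not given for that setting. As labelled, all libraries gave 8 higher and 1 lower, against 29.6% and 12.4% of all genes. Psmb5 had 0, 0.961 and 79.1 CPM in injected embryos, against 0, 0.073 and 9.42 CPM in SR1848 embryos, and the log2 fold change was 1.56 ± 0.50 (edgeR adjusted p = 0.00692). Its median was 13.2 CPM in the 14 injected embryos with little GFP and 0.586 CPM in the other 42, and the difference between these was not tested. Without the 14, its fold change was −0.19 (edgeR adjusted p = 0.764), and with all libraries as labelled it was 3.35. The injected embryos with the most Psmb5 were thus those with little GFP.

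Other rises also rested on these 14 embryos. Psmd13 rose by 1.53 ± 0.44, Psmd7 by 1.02 ± 0.27, Psmb1 by 0.68 ± 0.25, Psma2 by 0.31 ± 0.13 and Psma3 by 0.28 ± 0.11 with them. Without them, these were 0.81, 0.03, −0.17, 0.10 and 0.15, and none was called. Psma6 at −0.60 and Psmd12 at −0.67 were called lower only without them.

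**Figure D3:**
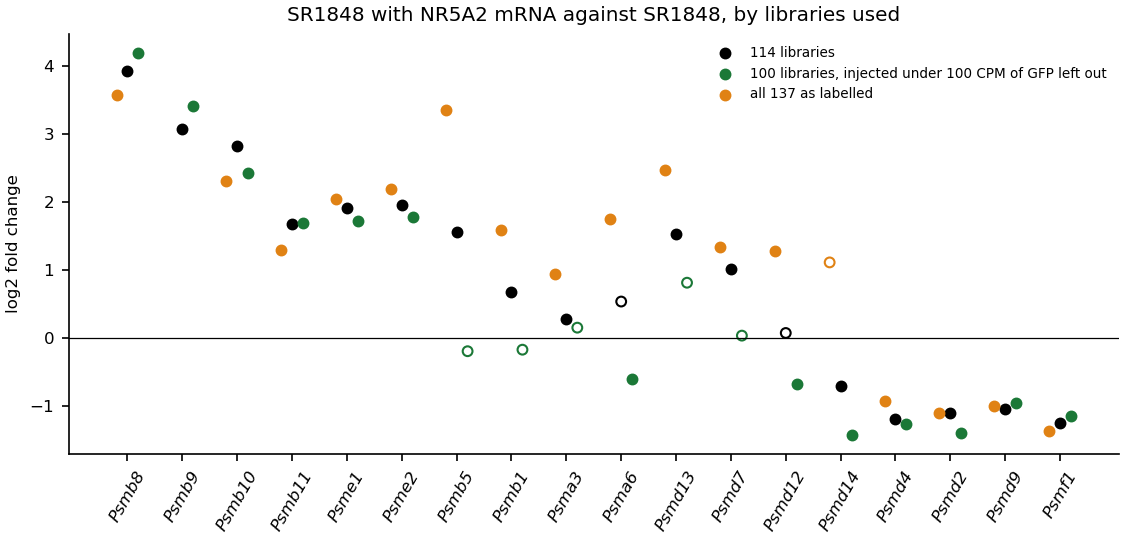
Log2 fold change (y axis) of 18 proteasome genes (x axis) for SR1848 with NR5A2 mRNA against SR1848 in 3 sets of libraries, the 114 used, the 100 left without injected embryos under 100 CPM of GFP, and all as labelled; filled points are called at an edgeR adjusted p under 0.05. Psmb8 and Psmf1 keep their side of 0 and their call in each set, while Psmb5 lies at 1.56, −0.19 and 3.35.

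The members that fell with NR5A2 mRNA included Psmf1, the base scaffolds and the base chaperones, with 2 of 6 base ATPases and 4 of 8 lid members. In the 19S particle 9 of 17 fell and 3 rose, or 4 and 7 with all libraries as labelled and 11 and 1 without the 14 embryos. Of all genes, 16.0% fell and 28.9% rose, or 12.4% and 29.6% as labelled. The shares without the 14 embryos are not given. Psmf1 had 26.4, 122 and 225 CPM in injected embryos, against 168, 271 and 394 CPM in SR1848 embryos. All 56 injected embryos lay below the SR1848 median, and the log2 fold change was −1.25 ± 0.11 (edgeR adjusted p = 6.29e-18). Psmf1 thus stood between the SR1848 and DMSO levels.

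Psmd4, the ubiquitin receptor, had 0, 74.0 and 173 CPM in injected embryos, against 85.1, 170 and 267 CPM in SR1848 embryos, a change of −1.20 ± 0.13 (edgeR adjusted p = 7.34e-14). The scaffolds Psmd1 and Psmd2 changed by −0.85 ± 0.10 and −1.11 ± 0.14. Psmd9 changed by −1.05 ± 0.13 and Psmd10 by −1.05 ± 0.20. All 3 base chaperones and all 3 non-ATPase base members thus fell, under TMM scaling. With scaling to oocyte transcripts the median of all genes moved to 0.78, Psmd5 turned to 0.35 and Psmd1 and Psmd2, at −0.15 and −0.28, were not called, while Psmf1, Psmd4, Psmd9 and Psmd10 stayed lower.

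Against DMSO, embryos with SR1848 and NR5A2 mRNA still had low proteasome messages. Of 48 members, 37 fell and 9 rose, with a median log2 fold change of −1.73, against 34.5% and 42.6% of all genes and a median of 0.32. With all libraries as labelled 29 of 47 fell and 4 rose (median −0.996), against 25.0% and 32.1% of all genes. Experiment 1 alone gave 33 lower and 8 higher (median −1.59), and experiment 2 alone 29 and 5 (median −1.71). The medians of all genes were 0.23 and 0.73 in these experiments, and shares of all genes called are not given for them. In the constitutive core 13 of 14 fell, and in the 19S particle all 17 fell, or 13 of 17 with all libraries as labelled. For 12 members, all lower, the 56 injected and 18 DMSO embryos did not overlap. Here too the share of all genes without overlap was not computed. Psma3 had 12.4, 40.5 and 140 CPM in injected embryos, against 160, 266 and 336 CPM in DMSO embryos, a change of −2.63 ± 0.13 (edgeR adjusted p = 9.51e-37). Psmd14 changed by −4.82 ± 0.33, the lowest value of the members.

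The 9 that rose with TMM were Psmb8 at 4.46 ± 0.68, Psmb9 at 3.41 ± 0.88, Psmf1 at 1.62 ± 0.17, Psmd10 at 1.08, Psmg1 at 0.85, Psme3 at 0.64, Psmd9 at 0.63, Psme4 at 0.62 and Psma7 at 0.59. With scaling to oocyte transcripts, which moved the median of all genes to −0.93, Psmd10, Psmg1, Psme3, Psmd9, Psme4 and Psma7 lay below 0, between −0.84 and −0.38. Psmb8 stayed at 3.32 on that scale, and Psmf1 was at 0.14 and was not called. Psmb10, Psmb11 and Psme1 remained under their DMSO levels, at −1.07, −0.94 and −1.30, and Psme2 at −0.61 was not called. Psmb10 and Psmb11 each lost this call in 6 of 14 alternatives and Psme1 in 7, among them all libraries as labelled and experiment 2 alone. With all libraries as labelled Psmb10 was at −0.38 (edgeR adjusted p = 0.497).

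The balance of core and 19S messages shifted towards the 19S particle under SR1848. The summed TPM of the constitutive core had medians of 578 in injected, 666 in SR1848 and 3266 in DMSO embryos, and that of the 19S particle 835, 1354 and 3451. The ratio of core to 19S was 0.176, 0.654 and 1.18 (lowest, median, highest) in injected embryos, 0.297, 0.488 and 0.711 in SR1848 embryos and 0.895, 0.969 and 1.16 in DMSO embryos. All SR1848 embryos lay below all DMSO embryos, and injected embryos spanned both. Psma7 and Psmd11 were the most abundant of each per length over all embryos, although in DMSO embryos Psma7 had a median of 133 TPM and Psma6 of 481 TPM. Without these 2 genes the medians of the ratio were 0.584, 0.484 and 1.22 in the same order of groups. A ratio within a library does not depend on the scaling between libraries.

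The ratios of the 16 libraries set aside were set against those of their labels. SR1848 with NR5A2 mRNA libraries 1 to 8 had ratios of 1.03 to 1.22, above the 0.410 to 0.937 of the injected embryos used from experiment 2. Injected embryos of experiment 1 reached 1.18, so these ranges overlapped. DMSO libraries 1 to 8 had 0.363 to 0.794, below all DMSO embryos used. Single members followed. Psmb5 had medians of 101 CPM in the first and 1.43 CPM in the second, and Psmf1 28.5 and 100 CPM. These libraries had been set aside by GFP and Nr5a2, or in the case of DMSO library 4 (ratio 0.794) by GFP alone.

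**Figure D4:**
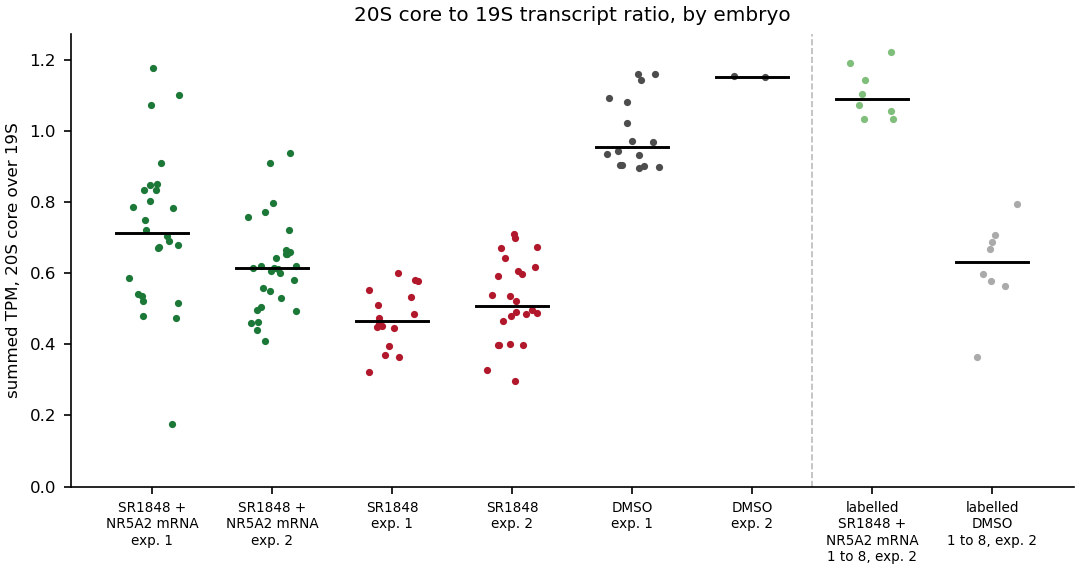
Ratio of the summed TPM of the constitutive 20S core to that of the 19S particle (y axis) in each embryo, by group and experiment (x axis), with the 16 libraries that went against their labels shown apart; each point is an embryo and lines are medians. SR1848 embryos (0.297 to 0.711) all lie below the DMSO embryos used (0.895 to 1.16).

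The response was compared between experiments for SR1848 with NR5A2 mRNA against SR1848, the contrast with enough embryos in each. The difference was called for 265 of 15135 genes and for 0 of 48 members by edgeR. Of the members, 7 had an unadjusted p under 0.05. Psmd3 and Psme4 came closest, with differences of 0.95 and 0.58 between experiments (edgeR adjusted p = 0.0570 and 0.0579). The 16 DMSO embryos of experiment 1 carried most of both comparisons with DMSO.

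The spread of the members on the log2(CPM + 1) scale was larger among treated embryos. The median SD of log2(CPM + 1) over the 48 members was 1.12 in injected embryos of experiment 1 and 0.839 in experiment 2. It was 0.714 and 0.614 in SR1848 embryos, and 0.414 in DMSO embryos of experiment 1. An SD on this scale depends on the level, and most members were lower in treated embryos. The spread of all genes was not computed. The injected embryos also include the 14 under 100 CPM of GFP, among them a library with 8330 detected genes. The part of level and of these embryos in the spread was not tested. Psmd11 was the steadiest member in both experiments of SR1848 embryos. Across embryos of a group and experiment, the 31 core and 19S members were weakly related, with a median pairwise Spearman rho of 0.13 to 0.29, and these embryos share depth and scaling.

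Transcripts of a gene did not all follow its sum. Psma3-202, a long protein-coding form, averaged 26.2 ± 6.69 CPM in injected, 23.3 ± 7.52 CPM in SR1848 and 29.3 ± 5.52 CPM in DMSO embryos (SD, n = 56, 40 and 18). Psma3-201 averaged 5.62 ± 7.42, 6.26 ± 5.54 and 96.5 ± 24.5 CPM in the same groups, so the fall of Psma3 lay in its shorter forms. Psme3-203, a processed transcript, averaged 0.674 CPM in injected, 0.0162 CPM in SR1848 and 17.5 CPM in DMSO embryos, although the gene as a whole rose under SR1848. Psmd1-204, annotated as a target of nonsense-mediated decay, averaged 12.4 ± 20.2 CPM in injected, 70.9 ± 33.8 CPM in SR1848 and 56.7 ± 29.6 CPM in DMSO embryos, while the coding Psmd1-201 averaged 99.6, 130 and 113 CPM. The counts are estimates that share reads between forms, and these forms were not tested.

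In the authors' deposited table, which sets injected over SR1848 embryos, 197 of the 278 member transcripts had an adjusted p. It was under 0.05 with a log2 fold change above 0 for 35 transcripts (17.8%) and below 0 for 34 (17.3%) in the authors' deposited table, and 31 of all these lay within 0.001 of 0. Over all 61900 transcripts with an adjusted p in the authors' deposited table the shares were 13.8% and 10.1%. Psmb8-206 stood at 2.84 (adjusted p = 8.33e-10), Psmf1-201 at −1.34 (adjusted p = 1.09e-17) and Psmf1-202 at −1.64 (adjusted p = 4.96e-20) in the authors' deposited table. The libraries that entered that table are not named in the labels or headers.

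A list of 33 other symbols linked to the proteasome matched 29 genes, all tested. Under SR1848 against DMSO, 12 of these fell and 8 rose, against 38.5% and 38.3% of all genes, so the share of falls was near that of all genes. With oocyte scaling 27 of the 29 were lower and 1, Ngly1, higher. Pomp, the maturation factor of the core, changed by −2.06 ± 0.14, the 19S ubiquitin receptor Adrm1 by −2.96, the lid peptide Sem1 by −2.44 and the unfoldase Vcp by −3.73. Ngly1, the deglycosylase that activates Nfe2l1, rose by 2.94 with TMM (0.98 with oocyte scaling), Ecpas, which tethers the proteasome, by 1.80 (−0.20) and Nfe2l2 by 1.22 (−0.72). Nfe2l1 itself rose by 0.42 with TMM and was at −1.51 with oocyte scaling.

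With NR5A2 mRNA against SR1848, 3 of the 29 rose and 6 fell, against 28.9% and 16.0% of all genes (23 and 2 with oocyte scaling). Among them Uchl5, a deubiquitinase of the 19S particle, rose by 1.86 and Rps27a, a ubiquitin-ribosomal fusion, by 1.57. Txnl1 changed by −1.08, Ngly1 by −0.99 and Ecpas by −0.88, and Ecpas was not called with oocyte scaling (−0.19, edgeR adjusted p = 0.111). Against DMSO, 8 of the 29 rose and 15 fell, against 42.6% and 34.5% of all genes (2 and 23 with oocyte scaling), with Vcp at −3.51, Pomp at −1.86 and Uchl5 at 2.15.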

How the data were processed

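Single 2-cell embryos were profiled by SmartSeq2 RNA sequencing. The deposited table holds estimated counts per transcript and embryo. The submitters' processing notes name bcl2fastq, Trim Galore 0.6.2, kallisto 0.46.1, R 3.5.1 and DESeq2 1.32.0 and the builds mm10 and hg19, with no role for either. The deposited comparison table gives log2 fold changes and adjusted p-values per transcript, per the file headers. Estimated counts were summed by gene symbol, with pairs of transcript and gene taken from the deposited table and GENCODE M21. The sums were rounded, since 26.3% of all estimated counts, zeros included, were not whole (tolerance 1e-09). Entries with no gene, 0.557% of counts, were left out. kallisto shares reads between similar transcripts, and no label states whether strand was used, so near copies and overlapping genes are uncertain.

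Column names were matched to the labels by group prefix, number and experiment. Libraries under 0.2 of the median total or 0.5 of the median gene number were left out (7), as were 16 against their labels. edgeR 4.0.16 (R 4.3.3) fitted group and experiment with TMM scaling and its default expression filter to 114 libraries. CPM used TMM-scaled totals over all libraries, and TPM used GENCODE transcript lengths. Each SE is the fold change over the root of the test's F. The test was checked on simulated data. Named genes were the 6 with the smallest p in each direction and the most abundant per length of each class. Members and lists were chosen with earlier results of these data known. Alternatives covered library sets, scaling, filter, DESeq2 1.42.0 and a replicate block. Replicate numbers did not pair embryos: over 65 same-number pairs the median correlation of deviations was 0.0039.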

Additional observations from a re-analysis of the deposited data

How the results depend on the processing

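Under 14 alternatives, 16 of the 34 members lower in SR1848 against DMSO and 1 of the 7 higher (Psmf1) had the same call throughout. The same held for 5 of 14 higher (Psmb8, Psmb9, Psmb10, Psme1, Psme2) and 4 of 19 lower (Psmf1, Psmd4, Psmd9, Psmd10) with NR5A2 mRNA against SR1848. Psmb9 could be tested in 11 alternatives. The cause of the changes below was not tested.

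With scaling to oocyte transcripts, SR1848 against DMSO gave 1 member higher, 1207 genes higher, 10516 lower and a member median of −4.13, with Psma7 at −1.59, Psmd9 −0.33, Psme3 −0.97, Psme4 −1.12 and Psmg1 −0.67. NR5A2 mRNA against SR1848 gave 31 members higher, 4 lower, 10118 genes higher, 268 lower and a median of 0.75, with Psmc2 at 0.37, Psmd11 0.19, Psmd5 0.35, Psme4 0.47 and Psmg1 0.28. NR5A2 mRNA against DMSO gave 2 members higher, 2650 genes higher, 8110 lower and a median of −2.91, with Psma7 at −0.84, Psmd10 −0.38, Psme4 −0.66 and Psmg1 −0.39. Relative log expression gave member medians of −2.75 for SR1848 and −2.11 for NR5A2 mRNA against DMSO, with 4 members higher in the second. DESeq2 gave −2.75 and −2.13, with 5 higher in the second.

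With all libraries as labelled, member medians were −1.73 in SR1848 against DMSO, 0.61 in NR5A2 mRNA against SR1848 (23 higher, 9 lower, Psmc3ip at 1.52) and −0.996 in NR5A2 mRNA against DMSO (4 higher). With only the 16 contrary libraries put back these were −1.85, 0.62 (26 higher, 12 lower, Psmc3ip at 1.55) and −1.06, and with only the low libraries put back −1.80 in SR1848 against DMSO. Experiment 1 alone gave 8 members higher and 10 lower with NR5A2 mRNA against SR1848, and 1214 genes lower. Experiment 2 alone gave 8 higher in that comparison, 4 members and 3485 genes higher in SR1848 against DMSO, and 5 members higher, 3663 genes higher and 3311 lower in NR5A2 mRNA against DMSO, with Psme4 at −0.015.

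Experiment 2 alone with its contrary libraries kept, chosen after seeing the data, gave 19 members lower, 1109 genes higher, 3507 lower and a member median of −1.01 in SR1848 against DMSO, with Psmb2 at 0.12, Psmd11 0.21 and Psmd4 0.80. NR5A2 mRNA against SR1848 gave 27 members higher, 10 lower and a median of 0.90, with Psmc2 at 0.14, Psmd5 0.23 and Psmc3ip 2.62. NR5A2 mRNA against DMSO gave 0 members and 0 genes higher and 0 lower by edgeR (0 of 47 members and 360 of 15212 genes at an unadjusted p under 0.05) and a median of −0.0081, with Psma7 at −0.044, Psmb10 0.0125, Psmb2 0.056, Psmb9 −0.055, Psmc2 0.061, Psmc3ip 0.32, Psmd11 0.17, Psmd4 0.27, Psme4 −0.21 and Psmg1 −0.0525. The 8 libraries of each label that went against it are most of the DMSO embryos of that experiment.

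Without the 14 injected embryos under 100 CPM of GFP, also chosen after seeing the data, 8 members were higher with NR5A2 mRNA against SR1848. With no filter, 9071 genes were lower in SR1848 against DMSO, and 9564 and 9796 higher with NR5A2 mRNA against SR1848 and DMSO. With a replicate block, 7 members and 2496 genes were higher with NR5A2 mRNA against SR1848, and the member median against DMSO was −2.11, though the numbers do not pair embryos. At these depths, members with medians under 1 CPM rest on few counts.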
